A study of Mus musculus with 23 samples.

Results

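The comparison set the prefrontal cortex of mice at postnatal week 10 against that at postnatal week 3. It used 8 of the 23 arrays of the series, all 4 labelled week 10 and all 4 labelled week 3, chosen by sample title alone. Both groups were untreated, wild-type male C57BL/6 mice bred from purchased stock, and by the series' design text each array held RNA from a separate animal. The week 3 animals carry the numbers 2, 3, 5 and 6 in the labels, and the week 10 animals the numbers 1, 6, 7 and 8. All 8 arrays are labelled as batch 1. The tissue was everything in front of a coronal cut behind the frontal pole, so it can include more than prefrontal grey matter. The other 15 arrays, from weeks 2, 4 and 5, entered the model to estimate the spread between animals. Affymetrix MOE430A arrays measure mRNA with sets of short probes, and each level below is a deposited log2 value of such a probe set, so that a difference of 1 means a factor of 2.

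Between weaning and adulthood the rodent cortex completes its wiring. Early growth programmes of neurons end, vessels stop sprouting and their basement membrane, a sheet of type IV collagen, laminin and nidogen, is maintained rather than built. Oligodendrocytes arise from precursors, wrap axons in myelin and then lower the synthesis of some membrane components. The brain also leaves the suckling diet, in which it burns ketone bodies taken up through monocarboxylate transporters, for glucose.

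The labelled tissue was checked on neuronal and non-neural markers. Snap25, a protein of synaptic vesicle fusion, lay between 14.2 and 14.6 on the 8 arrays, and the neurofilament gene Nefl between 11.9 and 12.2. Syt1, a vesicle calcium sensor, ran from 10.60 to 12.30 and the kinase gene Camk2a from 5.32 to 8.93. The liver, pancreas and kidney genes Alb, Ins2 and Umod had medians of 3.06, 2.78 and 3.66, under the value of 4 that a probe set had to reach on 4 of the 23 arrays to be tested, and the heart myosin gene Myh6 had a median of 4.09 and passed that filter. The 2 ages shared no scan day. All week 3 arrays were scanned on scan day 6 with no other age, and the week 10 arrays on days 1 (animal 1), 2 (animals 6 and 7) and 4 (animal 8), so age and scan day cannot be told apart within these 8 arrays. Scan day 7, the next after day 6, held 2 of the week 2 arrays and 1 week 5 array whose age mates were scanned on other days, and the difference of day 7 from the other days within those weeks, the scan day difference below, was measured for each probe set. All 3 arrays of day 7 are labelled as batch 2, which holds 1 other array, of week 5 and scan day 5. In week 2, day 7 and batch 2 therefore cannot be told apart, and in week 5 they differ by that 1 array. The actin signal at the 3′ end minus that at the 5′ end, which rises as RNA degrades, was 1.18 ± 0.08 (SD, n = 4) at week 3 and 1.56 ± 0.17 at week 10, a difference of 0.39 without overlap (two-sided exact permutation p = 0.0286, the smallest that 70 splits allow, and 0.0571 after Benjamini-Hochberg adjustment over 2 measures). The same measure for Gapdh differed by 0.03 (exact permutation p = 0.971).

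With a mean for each week and a term for batch, limma called 1538 of 9198 genes (16.7%) at an adjusted p under 0.05, 763 higher at week 10 (8.30%) and 775 lower (8.43%), with a median change over all genes of 0.02. In probe sets, 2773 of 16103 (17.2%) were called. The larger changes were mostly decreases, since 142 genes fell by at least 2-fold (1.54%) and 14 rose as much (0.152%). Across the 16103 probe sets the change with age had a correlation of -0.69 with the scan day difference, a description over probe sets that share the same arrays. Of the 2773 called probe sets, 2431 (87.7%) had a scan day difference of the opposite sign, against 67.3% of all tested. For this reason 2 further models were fitted, neither of which holds a batch term, and a change given below with no model named is from the batch term. In the random-day model scan day was a random effect, and in the joint-day model scan days 6 and 7 shared a fixed term. These called 184 genes (2.00%) and 92 genes (1.00%). The 3 models called 51 genes in the same direction (0.554%), 12 higher at week 10 (0.130%) and 39 lower (0.424%). In probe sets, all 3 called 93 (0.578%). With both scan day terms in 1 model, an alternative added after the data were seen, 9 of the 51 genes were called, namely Tent5c, Col3a1, Alas2, Marcksl1, Nid1, Col4a1, Tmem163, Neat1 and Il33, and all 51 kept their direction.

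**Figure D1:**
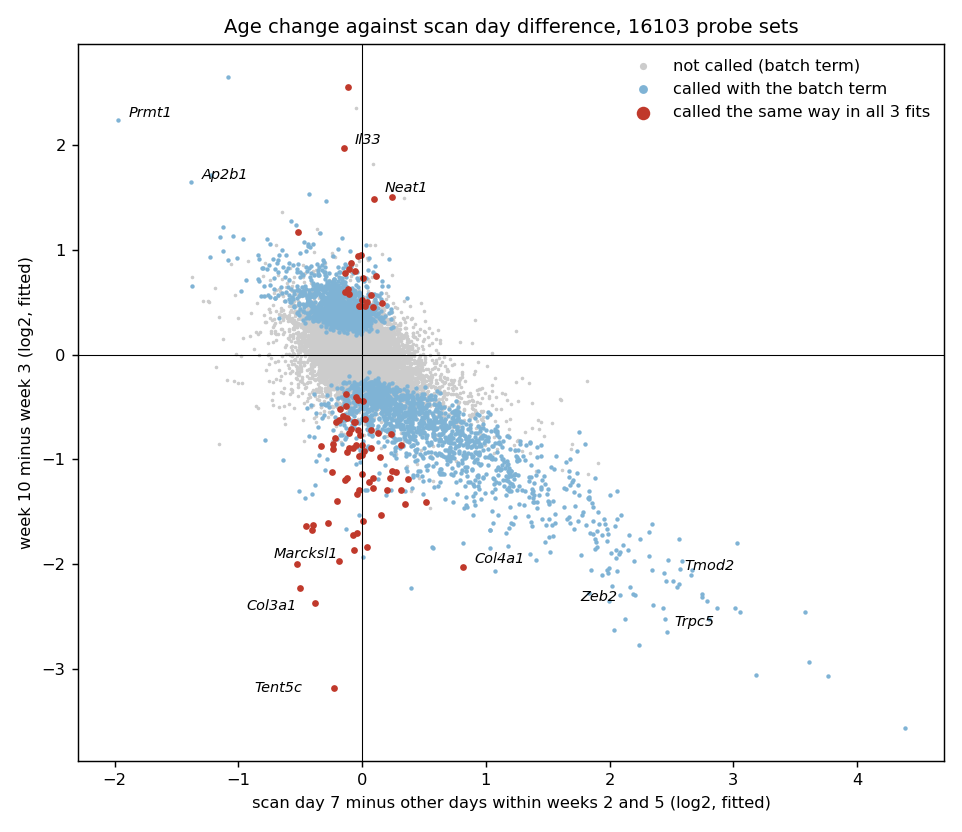
Each point is 1 of 16103 probe sets, with its fitted change from week 3 to week 10 (log2, vertical) against the fitted difference of scan day 7 from the other days within weeks 2 and 5 (log2, horizontal). Grey points were not called with the batch term, blue points were called, and the 93 red points were called the same way in all 3 models. The blue points run from upper left to lower right (correlation -0.81 over the 2773 called), while most red points lie close to a scan day difference of 0, with Col4a1 at 0.82 the furthest, and since the joint-day model removes an offset of days 6 and 7, the choice of the red points itself favours this.

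The decreases of the 51 genes were led by extracellular matrix. Of 31 measured matrix genes, 9 were lower at week 10 and 0 were higher with the batch term, 6 of them in all 3 models, with a median change of -0.24 against 0.02 over all genes. These were Col3a1, Col1a2, Col4a1, Lamc1, Nid1 and Fn1. Col3a1, the chain of fibrillar type III collagen, measured 7.54, 7.78, 7.68 and 7.53 at week 3 and 5.67, 5.47, 4.85 and 5.07 at week 10. Every week 10 animal lay below every week 3 animal, as held for 1927 genes (21.0%) in either direction. The Col3a1 change was -2.37 ± 0.27 (SE), a 5.17-fold decrease (limma, adjusted p = 1.3e-05), and -2.75 in the joint-day model (adjusted p = 0.00035). In bulk tissue fewer cells of a type and less RNA in each cell cannot be told apart, here and for every gene below.

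Col4a1, a chain of basement membrane collagen, had the smallest adjusted p of all 9198 genes. Its levels were 9.88, 10.15, 9.98 and 9.96 at week 3 and 7.99, 7.86, 8.06 and 7.96 at week 10, without overlap. The change was -2.03 ± 0.11 (adjusted p = 9.5e-10), and it was -1.21 in the joint-day model (adjusted p = 0.00035) beside a scan day difference of 0.82. A second Col4a1 probe set changed by -1.14. Col4a2, which codes for the partner chain and was singled out after its values were seen, measured 8.50 ± 0.15 (SD, n = 4) at week 3 and 7.88 ± 0.20 at week 10, a change of -0.62 (adjusted p = 0.0011) that missed the threshold in the random-day model (0.057) and in the joint-day model (0.071).

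Col4a1 and Col4a2 lie head to head on mouse chromosome 8, and their promoter windows are shown because these partner genes were both lower at week 10 and share this stretch. In RefSeq on build GRCm38.p6 the Col4a1 window is chr8:11312777-11313076 on the minus strand and the Col4a2 window chr8:11312555-11312854 on the plus strand. The windows overlap over 78 bases, printed in capitals, which read in opposite directions in the 2 lines.
Col4a1: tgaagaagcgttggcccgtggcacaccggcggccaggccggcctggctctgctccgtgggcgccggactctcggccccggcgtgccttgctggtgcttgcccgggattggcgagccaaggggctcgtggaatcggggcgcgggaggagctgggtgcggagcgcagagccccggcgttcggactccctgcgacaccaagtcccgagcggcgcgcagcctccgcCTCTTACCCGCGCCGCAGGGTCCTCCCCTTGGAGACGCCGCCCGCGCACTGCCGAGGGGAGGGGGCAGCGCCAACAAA
Col4a2: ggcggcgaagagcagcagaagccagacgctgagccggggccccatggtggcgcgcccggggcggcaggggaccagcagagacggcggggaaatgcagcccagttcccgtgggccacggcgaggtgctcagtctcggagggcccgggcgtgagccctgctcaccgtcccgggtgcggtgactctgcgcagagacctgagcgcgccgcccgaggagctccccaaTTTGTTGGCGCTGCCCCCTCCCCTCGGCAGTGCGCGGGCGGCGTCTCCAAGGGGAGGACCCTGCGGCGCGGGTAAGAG
The motif GGGCGG, counted on both strands with overlapping copies included, occurred 1 time in the Col4a1 window and 3 times in the Col4a2 window. Of 32851 promoter windows of the same length, 35.7% held it at least once.

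Other proteins of the basement membrane and the interstitial matrix were lower in all 3 models as well. Nid1, the nidogen that ties laminin to type IV collagen, measured 6.49, 6.36, 6.2 and 6.2 at week 3 and 4.87, 4.25, 4.80 and 4.46 at week 10. Its change was -1.72 ± 0.19 (adjusted p = 1.2e-05), with no overlap between the ages. Lamc1, a laminin chain, changed by -1.22, the fibronectin gene Fn1 by -0.77, the elastin gene Eln by -1.30 and the type I collagen chain Col1a2 by -1.29. Serpinh1, a chaperone for collagen in the endoplasmic reticulum, changed by -1.11, and Igfbp7, a growth factor binding protein of vessel walls, by -0.64. Col5a2 (-0.78) and Sparc (-1.27), 2 partners of fibrillar collagen assembly named after their values were seen, were called with the batch term, and a second Sparc probe set was called in all 3 models (-1.42, and -1.08 in the joint-day model, adjusted p = 0.048). Col1a1 was at -0.25 and Hspg2, the perlecan gene, at -0.24, both without a call. The mean level of the list was 6.66 ± 0.07 (SD, n = 4) at week 3 and 6.15 ± 0.08 at week 10.

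**Figure D2:**
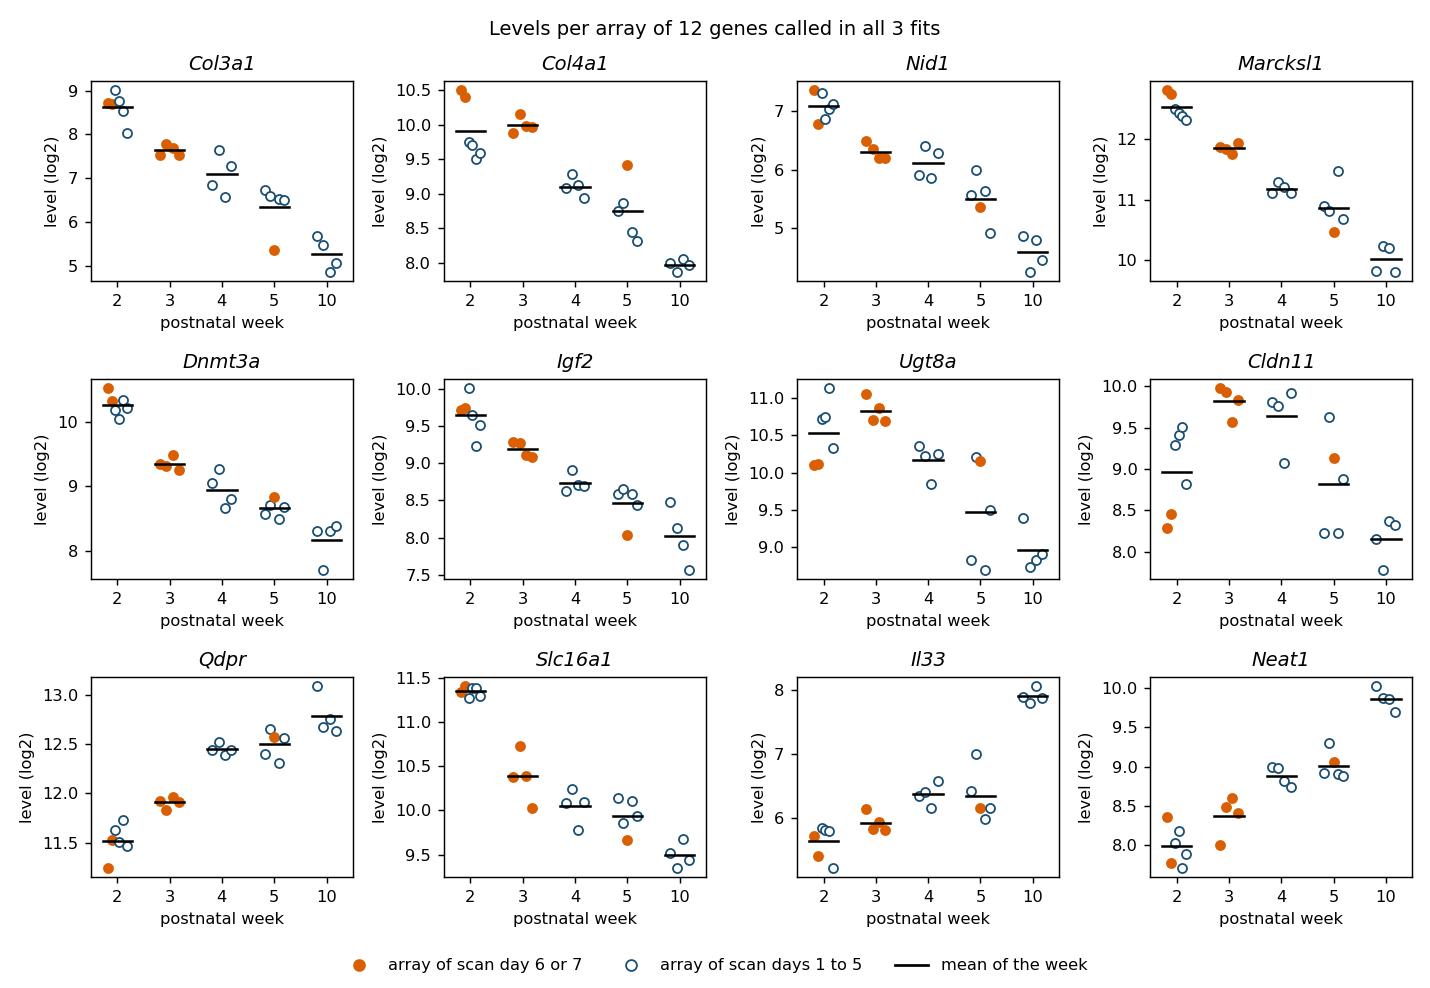
Levels (log2, vertical) of 12 genes called in all 3 models, by postnatal week (horizontal), with 1 point per array and a bar at the mean of each week. Orange points are arrays of scan days 6 and 7 and open points those of days 1 to 5, so all 4 week 3 arrays are orange. Col3a1, Nid1, Marcksl1, Dnmt3a, Igf2 and Slc16a1 decline from week 2 on, Ugt8a and Cldn11 are highest at week 3, and Il33, at 5.93 at week 3 and 6.34 at week 5, reaches 7.90 at week 10.

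Vessel and blood genes stood beside the matrix genes. Of 24 endothelial genes, 7 were lower and 0 higher with the batch term (median -0.20), and 2, Vwf and Slc16a1, in all 3 models. Vwf, the clotting factor made by endothelium, measured 6.15, 6.56, 6.56 and 6.69 at week 3 and 5.39, 5.32, 5.90 and 5.75 at week 10, without overlap, a change of -0.90 ± 0.15 (adjusted p = 0.00047). The endothelial surface receptor Cd93 changed by -1.29 (adjusted p = 0.00062, and 0.056 in the joint-day model), and the co-receptor Eng by -0.62 (adjusted p = 0.0014, and 0.058 in the random-day model). The defining endothelial genes Pecam1 (0.03), Cldn5 (-0.12) and Cdh5 (-0.20) were not called. Of 10 pericyte and smooth muscle genes 3 were lower and 0 higher, namely Notch3 (-0.89), Rgs5 (-0.44) and Pdgfrb (-0.39), none in all 3 models, and the Pdgfrb call was lost without any of 4 single arrays (adjusted p up to 0.106 without week 10 animal 6, with a change of -0.30).

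Markers of meninges and blood, which a dissection can include, were measured as lists. Of 18 measured meningeal and fibroblast genes 1 was higher and 2 were lower. The median change of the list was -0.23, with 14 of the 18 negative, against -0.24 for the matrix list. In the joint-day model its median was also -0.23, with 16 negative. The summed linear level of the list ran from 12965 to 13969 at week 3 and from 10317 to 13355 at week 10. The 2 lower genes were Igf2 and Alcam, and the meningeal collagen-binding gene Dcn (-0.39) and the prostaglandin synthase gene Ptgds (0.08) were not called. Of 16 listed blood genes 6 were measured, and probe sets with no single gene symbol entered no list. Of the 6 measured 2 were lower, Alas2 and Slc4a1. The summed level of the measured genes was 343 to 447 at week 3 and 161 to 242 at week 10. Alas2, the erythroid enzyme that starts heme synthesis, measured 7.26, 7.03, 8.03 and 7.62 at week 3 and 6.08, 5.27, 5.17 and 4.53 at week 10, a change of -2.22 ± 0.30 (adjusted p = 6.8e-05). Gp1bb, a platelet glycoprotein chain and no member of the list, changed by -0.59. Its mean was 9.37 at week 2 and 8.79 at week 3, while that of Alas2 was 6.26 and 7.49, so their courses differed. The call of Slc4a1, the red cell anion exchanger (-0.65, adjusted p = 0.042), was lost without any of 7 single arrays, all but week 3 animal 2, with changes between -0.54 and -0.72. The part of meninges and blood in the matrix and vessel changes was not tested.

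Oligodendrocyte precursor genes had the highest share of lower genes among the lists. Of 13 measured, 10 were lower and 0 higher with the batch term, with a median change of -0.64, and 2, Olig2 and Vcan, were called in all 3 models. Olig2, the transcription factor that specifies the lineage, measured 7.69, 7.37, 6.89 and 6.77 at week 3 and 6.22, 5.53, 5.71 and 6.19 at week 10. All week 10 arrays lay below all week 3 arrays, and the change was -1.27 ± 0.20 (adjusted p = 0.00028, and 0.049 in the joint-day model). Versican, encoded by Vcan and made by precursor cells as a matrix proteoglycan, changed by -0.87. The precursor proteoglycan gene Cspg4 changed by -1.11 and C1ql1, a secreted complement-like protein of precursors, by -0.97, but in the joint-day model these were -0.27 and -0.08, and neither was called. The kinase gene Fyn changed by -1.14 with a call in the random-day model too (adjusted p = 0.0070) and by -0.41 in the joint-day model (0.093), while a second Fyn probe set was called in all 3 models (-0.61, and -0.59 in the joint-day model, adjusted p = 0.0078). Pdgfra, the growth factor receptor that defines the precursors, was at -0.36 with a call from the batch term.

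Myelin and oligodendrocyte genes split in both directions. Of 27 measured, 5 were higher and 10 lower with the batch term (median -0.15), and 1 was higher and 3 were lower in all 3 models. Ugt8a, the enzyme that makes the myelin lipid galactosylceramide, measured 11.06, 10.71, 10.87 and 10.69 at week 3 and 9.39, 8.73, 8.83 and 8.91 at week 10. Cldn11, the tight junction protein of myelin, measured 9.98, 9.93, 9.57 and 9.84 at week 3 and 8.15, 7.77, 8.37 and 8.32 at week 10. Neither gene's groups overlapped, and the changes were -1.87 ± 0.29 (adjusted p = 0.00021) and -1.68 ± 0.30 (0.00073). Gal3st1, which sulfates galactosylceramide, changed by -0.64 and the myelin surface protein gene Mog by -1.30 (adjusted p = 0.0075, but 0.122 in the random-day model). Sirt2, a deacetylase abundant in oligodendrocytes and no member of that list, changed by -0.86. Qdpr, the reductase that regenerates tetrahydrobiopterin and is abundant in oligodendrocytes, went the other way, from 11.92, 11.83, 11.97 and 11.92 at week 3 to 13.09, 12.67, 12.75 and 12.63 at week 10. Its groups did not overlap, and the change was 0.88 ± 0.11 (adjusted p = 2.5e-05) and 0.95 on its second probe set. Ndrg1, a stress-responsive protein of myelinating cells, changed by 1.06 (adjusted p = 0.0024, and 0.374 in the joint-day model). Mbp, the major protein of compact myelin, was at -0.38 with a call from the batch term on its representative probe set.

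**Figure D3:**
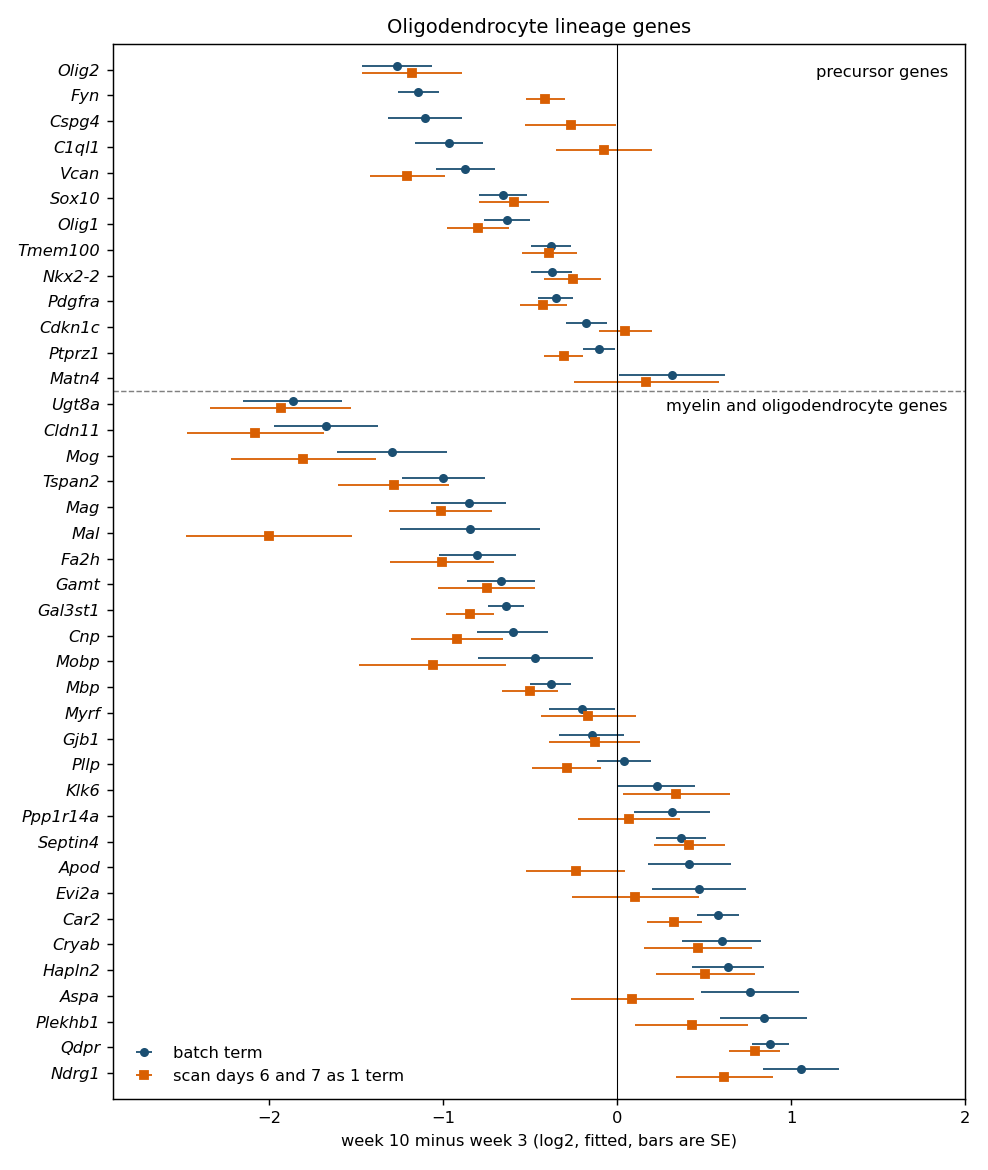
Fitted change from week 3 to week 10 (log2, horizontal, bars are the SE) of 13 precursor and 27 myelin and oligodendrocyte genes, with the batch term (blue circles) and in the joint-day model (orange squares). Olig2 and Vcan lie left of 0 in both models, Cspg4 and C1ql1 move close to 0 in the second, and Qdpr lies right of 0 at 0.88 and 0.79 while Ugt8a and Cldn11 lie left.

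Immature neuron genes were lower at week 10 where they were called. Of 29 measured, 11 were lower and 0 higher with the batch term (median -0.27), and 2, Marcksl1 and Sox4, in all 3 models. Marcksl1, an actin-binding substrate of protein kinase C in growing processes, measured 11.87, 11.84, 11.76 and 11.93 at week 3 and 9.83, 10.23, 10.21 and 9.80 at week 10. The groups did not overlap, and the change of -1.83 ± 0.16 (adjusted p = 7.3e-07) hardly moved in the joint-day model, at -1.79. Sox4, a transcription factor of differentiating neurons, changed by -0.87 ± 0.09 (adjusted p = 1.2e-05), and by -0.55 in the joint-day model (adjusted p = 0.040). In that model its other probe sets were at -0.10, -0.16, -0.06, 0.76 and 0.20, none of them called. Sox11, a relative of Sox4, changed by -1.60 with the batch term and also by -0.55 in the joint-day model (adjusted p = 0.218). The surface glycoprotein gene Cd24a changed by -1.66 (adjusted p = 0.0023), with 0.054 and 0.077 under the other models. Gap43 (-0.06), the growth cone protein, Stmn1 (0.15) and Neurod6 (0.03) were not called. The call of Dpysl3, a collapsin response mediator (-1.01, adjusted p = 0.032), was lost without any of 7 single arrays, all but week 10 animal 1, with adjusted p up to 0.077 and changes between -0.94 and -1.05.

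Among genes of chromatin and growth control, Dnmt3a, the methyltransferase that writes DNA methylation in young neurons, measured 9.36, 9.31, 9.49 and 9.26 at week 3 and 8.31, 7.70, 8.31 and 8.38 at week 10. The groups did not overlap, and the change was -1.18 ± 0.13 (adjusted p = 1.4e-05, and 0.012 in the joint-day model). It was the member of 24 measured DNA methylation and chromatin genes called in all 3 models, and with the batch term 2 of the 24 were higher and 3 lower. Dnmt1, which maintains methylation, was at -0.13 without a call, and the polycomb gene Cbx6, outside the list, changed by -0.63. Igf2, the imprinted insulin-like growth factor, measured 9.29, 9.27, 9.11 and 9.09 at week 3 and 8.48, 8.12, 7.89 and 7.56 at week 10, a change of -1.17 ± 0.17 (adjusted p = 0.00014) without overlap. Of 26 neurotrophin and growth factor genes, 2 were higher and 8 lower with the batch term (median -0.28), and Igf2 was called in all 3 models. Igfbp3, an insulin-like growth factor binding protein, changed by -0.82 (adjusted p = 0.011) and by -1.60 in the joint-day model (0.0014), but its adjusted p was 0.124 in the random-day model. The neurotrophin gene Bdnf was at 0.00 without a call. Outside the lists, the Frizzled receptor gene Fzd7 changed by -0.70, the β-catenin gene Ctnnb1 by -0.38 and Apc, which marks β-catenin for degradation, by -0.40, all 3 called in the 3 models. Fzd7 averaged 3.87 at week 2, 4.55 at week 3 and 3.84 at week 10. Its week 10 mean lay under the filter value of 4, so the size of its change is uncertain.

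The increases among the 51 genes were led by Il33 and Neat1. Il33, a nuclear cytokine released from damaged cells, measured 6.14, 5.83, 5.94 and 5.81 at week 3 and 7.88, 7.80, 8.06 and 7.88 at week 10. The lowest week 10 animal lay above the highest week 3 animal, and the change was 1.97 ± 0.17, a 3.93-fold increase (adjusted p = 5.6e-07), with 1.83 in the joint-day model. Neat1, the long non-coding RNA that scaffolds nuclear paraspeckles, measured 8.0, 8.48, 8.60 and 8.42 at week 3 and 10.02, 9.87, 9.86 and 9.69 at week 10. These groups did not overlap either, and the change was 1.49 ± 0.13, a 2.80-fold increase (adjusted p = 7.7e-07), with 1.58 in the joint-day model. Malat1, another abundant nuclear RNA, was at -1.05 with the batch term (adjusted p = 0.017) and at -0.09 in the joint-day model (0.943), and its call was lost without week 3 animal 3 (-0.98, 0.052) or 5 (-0.96, 0.054).

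The other increases were smaller. Cyb5r1, a cytochrome reductase, changed by 1.17 ± 0.13, and by 0.65 in the joint-day model. Syne2, a nesprin that links the nuclear envelope to the cytoskeleton, changed by 0.94, Aldh9a1, an aldehyde dehydrogenase, by 0.82, and Pttg1, the securin that restrains separase before anaphase, by 0.75. Dmac2l, a mitochondrial protein linked to ATP synthase, changed by 0.73, Sec11c, a subunit of the signal peptidase, by 0.58, and Epha7, an ephrin receptor, by 0.60 on its representative probe set. None of these 7 genes' groups overlapped, as held for 21.0% of all genes, and their choice by calls in all 3 models favours this. Mean levels at weeks 2 and 3 were 6.96 and 6.78 for Cyb5r1, 5.95 and 5.22 for Syne2, and 7.11 and 6.80 for Dmac2l. They were 8.81 and 8.72 for Aldh9a1 and 8.02 and 7.87 for Epha7, so these genes were also lower at week 3 than at week 2. Pttg1 (9.88 and 9.99) and Sec11c (9.66 and 9.73) were not. Ribosomal protein genes moved in 1 direction where they were called. Of 38 measured, 14 were higher and 0 lower with the batch term, with a median change of 0.26 against 0.02 over all genes and of 0.30 in the joint-day model. Rpl6, of the large subunit, measured 11.36 ± 0.06 (SD, n = 4) at week 3 and 11.99 ± 0.12 at week 10 without overlap, a change of 0.63 ± 0.09 (adjusted p = 0.00011). Rps19, of the small subunit, changed by 0.57 ± 0.10. These 2 were called in all 3 models, while Rps15 (0.52, adjusted p = 0.00059) missed the threshold in the joint-day model (0.052). The mean level of the list was 11.42 to 11.63 on the week 3 arrays and 11.64 to 11.85 on the week 10 arrays, so the groups lay apart by a narrow margin of mean level. At week 2 the list averaged 11.65 ± 0.10 (SD, n = 6), above the week 3 average of 11.52. The week 2 means of Rpl6 and Rps19, 11.68 and 10.89, likewise lay above their week 3 means of 11.36 and 10.70. Probes of ribosomal protein genes can match near-identical pseudogene transcripts, so these names are less certain.

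Genes of fuel supply were lower where they were called in all 3 models. Slc16a1, the monocarboxylate transporter of brain endothelium and glia, measured 10.38, 10.73, 10.39 and 10.03 at week 3 and 9.51, 9.35, 9.68 and 9.43 at week 10. The groups did not overlap, and the change was -0.89 ± 0.12 (adjusted p = 9.8e-05). Of 12 measured genes of ketone body use and transport 3 were lower and 0 higher with the batch term. Besides Slc16a1 these were Oxct1 (-0.72, adjusted p = 0.00010), which activates acetoacetate, and Bdh1 (-0.47, 0.0025), which oxidises hydroxybutyrate, with adjusted p of 0.093 and 0.195 in the joint-day model. Slc2a3, the neuronal glucose transporter, measured 11.338, 11.408, 11.414 and 11.433 at week 3 and 10.998, 10.946, 10.981 and 10.939 at week 10, a change of -0.43 ± 0.07 (adjusted p = 0.00043). Of 19 glycolysis genes 2 were higher, Tpi1 (0.33) and Pfkp (0.29), and 1, Slc2a3, was lower. Of 69 oxidative phosphorylation genes 5 were higher and 2 lower (median 0.01), none in all 3 models. Of 20 cholesterol synthesis genes 4 were lower, such as the early enzyme Hmgcs1 (-0.46, adjusted p = 0.0041), and 0 were called in either scan day model.

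Further genes outside these groups changed in all 3 models. Tent5c, a non-canonical poly(A) polymerase, measured 7.37, 6.51, 6.38 and 6.84 at week 3 and 4.20, 2.88, 4.34 and 2.95 at week 10. The change was -3.18 ± 0.38 (adjusted p = 2.4e-05) without overlap, but the week 10 mean of 3.59 lay under the filter value of 4, so its size is uncertain. Its mean was 5.30 at week 2, so that the week 3 arrays were its highest. Ppic, a secretory pathway prolyl isomerase, changed by -1.96 between levels of 4.19 ± 0.37 and 2.23 ± 0.49, the latter under the filter value. Ncan, the brain proteoglycan neurocan, measured 11.06 ± 0.13 at week 3 and 10.42 ± 0.21 at week 10, a change of -0.65, and of 13 lecticans and perineuronal net genes 2 were higher and 5 lower with the batch term. In that list Spock2 (-1.09), a testican, Adamts4 (-1.12), an aggrecanase, and Bcan (-0.78), the brevican gene, were called with the batch term and not in the joint-day model. The remaining 8 genes, all lower, were the calpain genes Capn5 (-1.18) and Capn10 (-0.97), the zinc transport gene Tmem163 (-0.80), the fatty acid dehydratase gene Hacd1 (-0.74), the receptor gene Tnfrsf19 (-0.72), the autophagy gene Trp53inp2 (-0.72), the striatin gene Strn4 (-0.49) and Neto1 (-0.44), an auxiliary protein of glutamate receptors.

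**Figure D4:**
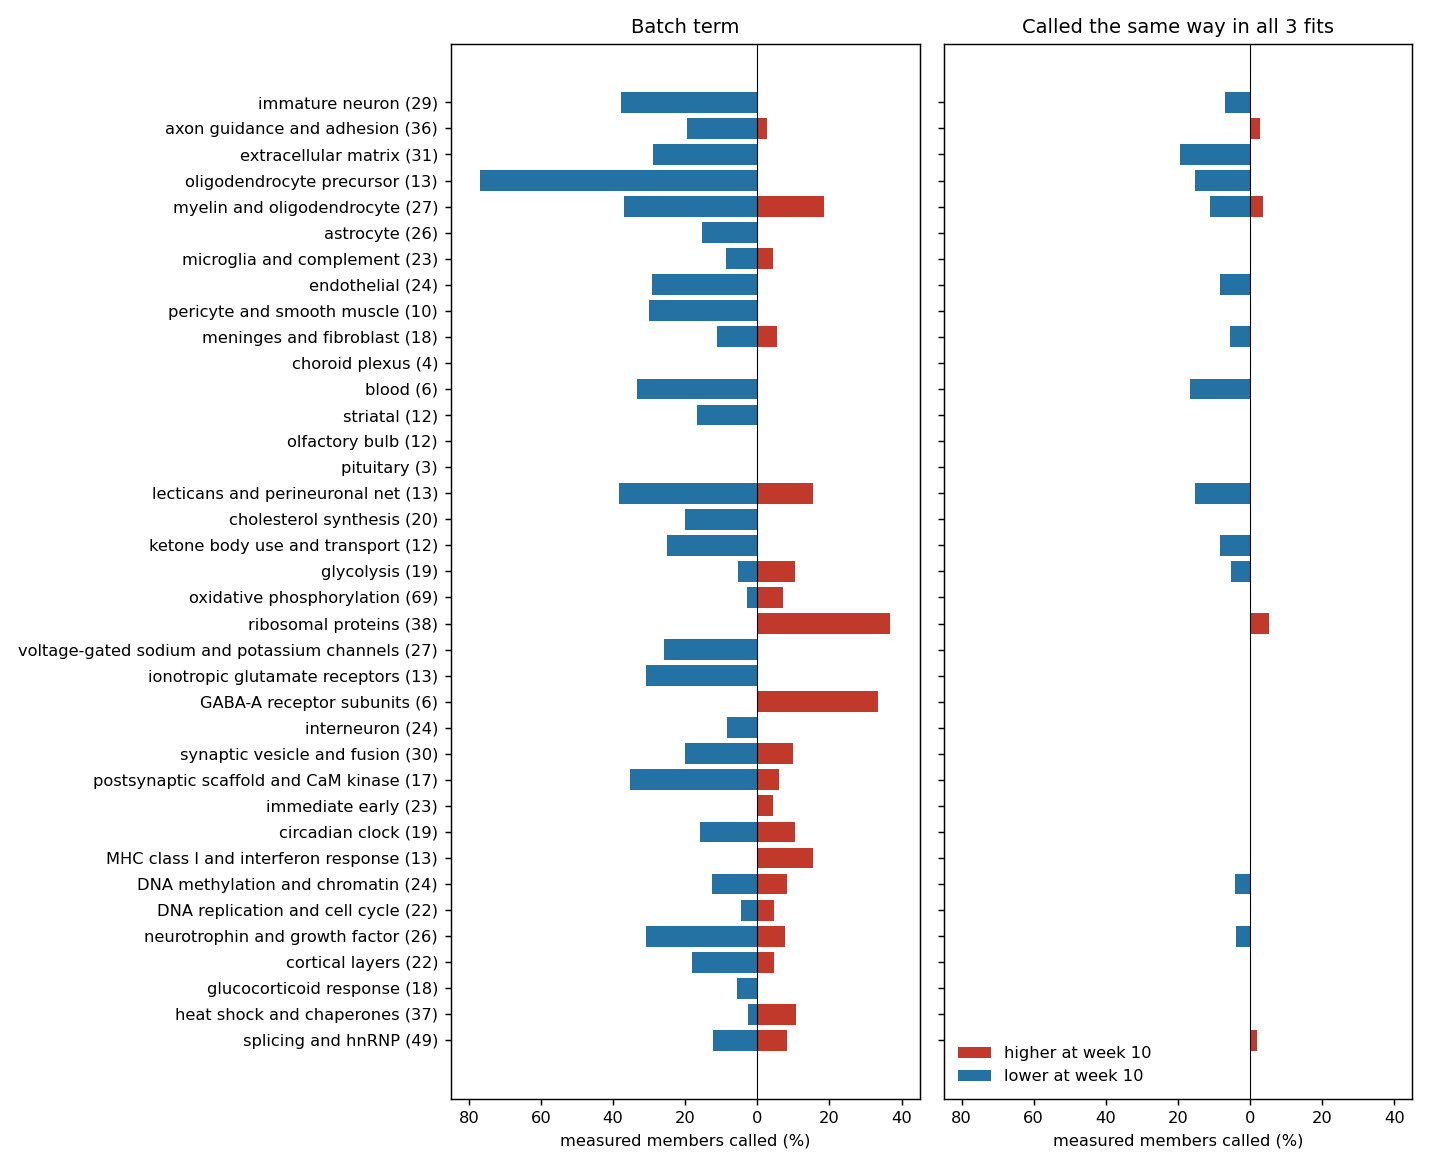
Share of the measured members of 37 gene lists (number measured in brackets) that limma called higher (red, to the right of 0) or lower (blue, to the left of 0) at week 10, in percent, with the batch term (left panel) and in all 3 models (right panel). Over all genes 8.30% were higher and 8.43% lower with the batch term, and 0.130% and 0.424% in all 3 models. The precursor list reaches furthest left with 10 of 13 lower in the left panel, and most lists are empty in the right panel.

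The genes with the largest changes under the batch term were mostly a different set. Of the 12 largest decreases that passed a filter on overlap and level, Tent5c, Col3a1 and Alas2 were called in all 3 models and 9 were not. Trpc5, a cation channel of growth cones, measured 4.93, 5.02, 5.18 and 4.97 at week 3 and 2.30, 2.73, 2.67 and 2.75 at week 10, without overlap, a change of -2.41 ± 0.35 (adjusted p = 0.00013). All 4 week 10 values lay under the median of the liver gene Alb, so the size of this change is uncertain. The scan day difference of Trpc5 was 2.43, and its age change was 0.02 in the joint-day model (adjusted p = 0.982). Tmod2, a neuronal tropomodulin, fell from 11.47 ± 0.17 (SD, n = 4) to 9.31 ± 0.23 with the batch term, a change of -2.16 (adjusted p = 0.0027) that became 0.35 (0.707). Zeb2, a transcription factor of neurons and glia, changed by -2.30, Sp1, a general transcription factor, by -2.28, Kcnc1, a fast potassium channel, by -2.20, and Cnnm1, a magnesium transport protein, by -2.35. Their scan day differences were 2.20, 2.19, 2.02 and 1.99. Their changes in the joint-day model were -0.09, -0.09, -0.18 and -0.35, none called there. In the random-day model Cnnm1 was called (adjusted p = 0.040), as were Trpc5 (0.047) and, of the genes that follow, Fbxo32 (0.029). Xkr6 (-2.42), a scramblase family member, Gdap10 (-2.35) and Fbxo32 (-2.28), a ubiquitin ligase subunit, had scan day differences of 2.87, 2.78 and 1.84. The week 10 means of these 3 genes, 2.59, 3.78 and 3.84, also lay under the filter value. For these changes, age and scan day cannot be told apart.

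The 12 largest increases under the batch term were taken with the same filter on overlap and level. They held Il33, Neat1 and Cyb5r1 beside 9 genes not called in all 3 models. Prmt1, a protein arginine methyltransferase, measured 7.87, 8.29, 6.05 and 6.94 at week 3 and 8.96, 9.99, 9.54 and 9.60 at week 10, a change of 2.24 ± 0.65 (adjusted p = 0.021). Its scan day difference was -1.98, its change in the joint-day model was 0.26 (adjusted p = 0.926), and its call was lost without week 3 animal 5 (1.82, 0.081), week 3 animal 6 (2.12, 0.053) or week 10 animal 6 (2.08, 0.055). Ap2b1, a subunit of the clathrin adaptor, changed by 1.64 (adjusted p = 0.0083) and by 0.26 in the joint-day model (0.865). Bcap29, a chaperone-like protein of the endoplasmic reticulum, Dkk3, of the Dickkopf family, Haus1, of the spindle augmin complex, and Cd83, an immune surface protein, changed by 1.03, 1.01, 1.11 and 1.03. These 4 were called in the random-day model as well, and in the joint-day model their adjusted p values were 0.110, 0.062, 0.124 and 0.290. Pex5l, a regulator of pacemaker channels, and Ttll1, a tubulin ligase, changed by 1.28 and 1.22 and were called in neither scan day model.

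Synaptic and excitability genes had calls with the batch term that did not pass in all 3 models. Of 27 voltage-gated sodium and potassium channel genes 7 were lower and 0 higher. Scn2a, a sodium channel of axons, changed by -1.41 (adjusted p = 0.00073) and by 0.10 in the joint-day model (0.878), and its scan day difference was 1.51. Of 30 synaptic vesicle genes 3 were higher and 6 lower, and Sv2a, a vesicle glycoprotein, was called in the random-day model too (-0.99, adjusted p = 0.010). Of 17 postsynaptic genes 1 was higher and 6 were lower, led by Dlg4, the scaffold of excitatory synapses, at -1.49 (adjusted p = 0.0044) and -0.45 in the joint-day model (0.768). Of 13 ionotropic glutamate receptor genes 4 were lower, with Grik5, a kainate receptor subunit, at -1.19 (adjusted p = 0.0015) and -0.65 in the joint-day model (0.454). Of 6 GABA-A receptor genes 2 were higher, Gabra3 (1.53, adjusted p = 0.047) and Gabrb1 (0.57, 0.014). The Gabra3 call was lost without any of 7 single arrays, all but week 10 animal 1, with changes between 1.21 and 1.64, and that of Gabrb1 without week 3 animal 3 (0.46, 0.060) or week 10 animal 1 (0.45, 0.055). Of 24 interneuron genes 2 were lower, Kcnc1 and the nitric oxide synthase gene Nos1 (-1.28, adjusted p = 0.00010), while the defining genes Pvalb (0.20), Sst (0.19) and Vip (0.42) were not called. None of the 6 lists of this paragraph held a gene called in all 3 models.

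The remaining lists were read against the 16.7% of all genes called with the batch term. Of 36 axon guidance and adhesion genes 1 was higher, Epha7, and 7 were lower, such as Cdh8, a cadherin, at -0.94 (adjusted p = 0.00051) and 0.00 in the joint-day model. Of 26 astrocyte genes 0 were higher and 4 lower (median -0.07), among them Gfap, the astrocyte filament gene, at -0.75 (adjusted p = 0.0076) and -0.38 in the joint-day model (0.656), while the defining genes Aqp4 (-0.07) and Aldh1l1 (-0.16) were not called. Of 23 microglia and complement genes 1 was higher and 2 were lower, Cx3cr1, the fractalkine receptor, at -0.79 (adjusted p = 0.0038) and Tmem119 at -0.79 (0.0078). In the joint-day model Cx3cr1 was at -0.12 (adjusted p = 0.863), beside a scan day difference of 0.67, and Tmem119 at -0.84 (0.178). Of 22 cortical layer genes 1 was higher and 4 were lower, and of 19 circadian clock genes 2 were higher and 3 lower. Rorb, a layer 4 and clock gene, was at -1.80 with the batch term (adjusted p = 0.015) and at 1.23 in the joint-day model (0.197), and without week 3 animal 6 its adjusted p was 0.060 at a change of -1.46. Its week 10 mean of 3.94 lay under the filter value. Of 49 splicing genes 4 were higher and 6 lower, among them Rbfox2, a neuronal splicing factor, at -2.05 (adjusted p = 0.0022) and 0.29 in the joint-day model. Of 37 heat shock and chaperone genes 4 were higher and 1 was lower, and of 13 MHC class I and interferon genes 2 were higher, led by Ifit3 (0.79, adjusted p = 0.0056, and 0.88 in the joint-day model, 0.116). Of 22 cell cycle genes 1 was higher and 1 lower, of 23 immediate early genes 1 was higher, and of 18 glucocorticoid response genes 1 was lower, Hif3a (-0.63, adjusted p = 0.010). Epha7 and Neat1 were the genes of these lists called in all 3 models.

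Markers of neighbouring regions were measured as well. Of 12 striatal genes 0 were higher and 2 lower, Pde10a, a phosphodiesterase of striatal neurons (-1.64, adjusted p = 0.0068), and Meis2 (-0.59), and neither was called in a scan day model. The median change of the striatal list was -0.44 with the batch term, with 11 of the 12 genes negative. It was -0.08 in the random-day model and -0.34 in the joint-day model, the latter again with 11 negative. The summed linear level of the striatal list ran from 11360 to 17063 at week 3 and from 7718 to 18895 at week 10, so the ages overlapped in that sum. Of 12 olfactory bulb, 4 choroid plexus and 3 pituitary genes 0 were called. The growth hormone gene Gh of the pituitary list measured 3.41 ± 0.14 (SD, n = 4) at week 3 and 5.76 ± 2.73 at week 10, a spread that left the difference uncalled (adjusted p = 0.335). The part of neighbouring tissue in the other results was not tested.

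Where several probe sets measured 1 gene, they were compared. Of the 51 genes, 23 had 38 further tested probe sets, of which 34 changed in the same direction, 23 were called in that direction and 1 was called in the opposite direction. Marcksl1 had 4 probe sets with changes of -1.83, -1.58, -1.33 and -1.19. The opposite call was in Epha7, whose representative probe set changed by 0.60 and another by -0.98 (adjusted p = 0.0034). In Nid1, a second probe set with a scan day difference of 0.87 changed by -0.72 against -1.72 on the representative, and in Igfbp7 the changes were -0.64 and -0.02 at scan day differences of -0.06 on both. A Dnmt3a probe set with a scan day difference of 2.24 changed by -2.77, whereas the representative, with 0.23, changed by -1.18 and another by -1.12. The remaining Dnmt3a probe sets changed by -0.22 and -0.30 without a call, and by 1.07 and 0.18 in the joint-day model, also uncalled. In Mbp, a weakly hybridising probe set changed by -2.05 with a scan day difference of 2.67, and in Dcx, a microtubule protein of migrating neurons, a second probe set changed by -2.63 with a scan day difference of 2.04, against -0.36 without a call on the representative. Mbp and Dcx were singled out after their values were seen.

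**Figure D5:**
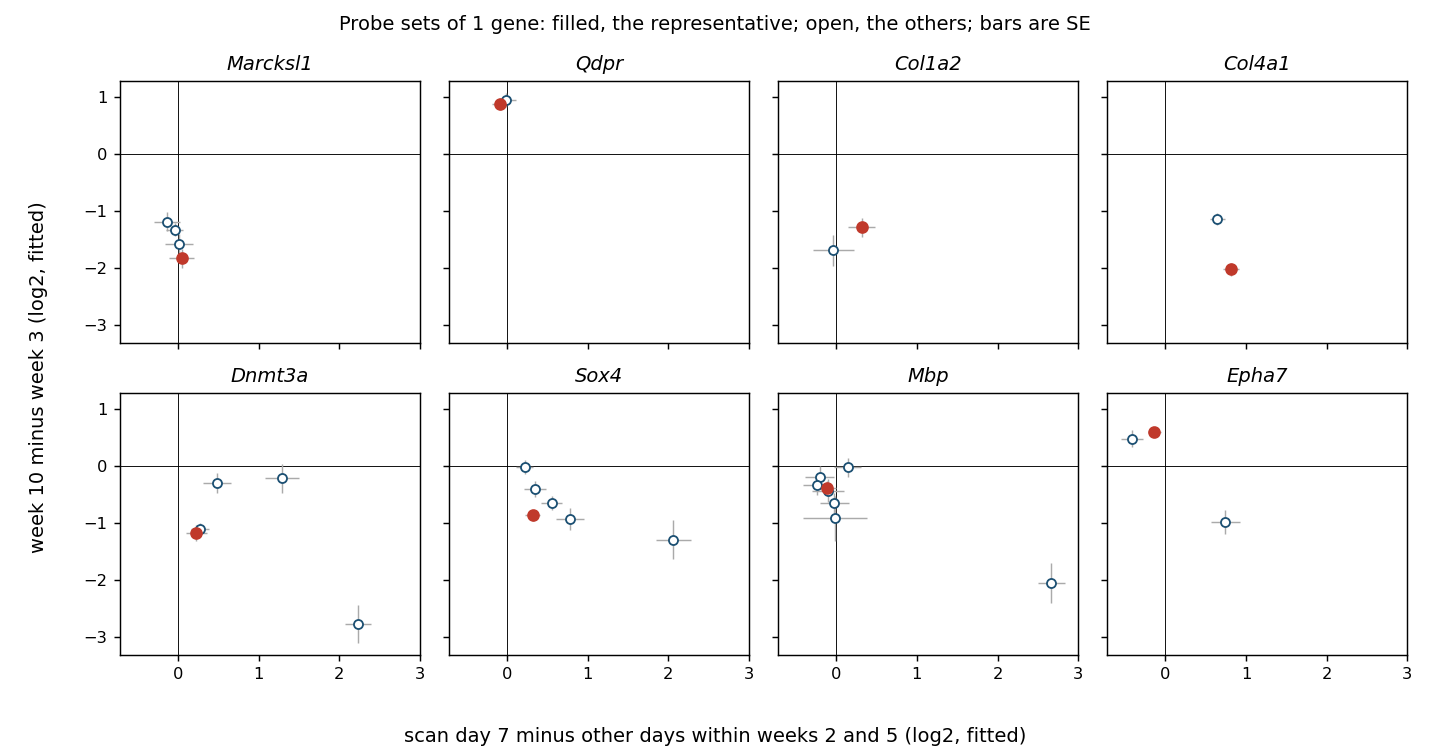
Probe sets of 8 genes, with the change from week 3 to week 10 (log2, vertical) against the scan day difference (log2, horizontal), bars giving the SE. Filled points are the representative probe sets and open points the others. The 4 Marcksl1 points lie together between -1.83 and -1.19, while 1 probe set each of Dnmt3a, Sox4 and Mbp lies apart at a scan day difference above 2.

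The course between the 2 ages was read from weeks 4 and 5. None of their arrays was scanned on day 6, but 3 of the 5 week 5 arrays shared scan days 1 and 2 with week 10 arrays. The 12 genes higher in all 3 models had gone a median of 61.3% of their way from the week 3 to the week 10 mean at week 4 and 59.9% at week 5. The 39 lower genes had gone a median of 32.5% at week 4 and 56.8% at week 5. These shares are descriptions, since week 3 sets both the start and the size of each change. At week 4, 33 of the 39 lower genes had gone less than 50% of the way, and 4 of the 12 higher genes. Qdpr was at 12.45 at week 4 and 12.50 at week 5, between 11.91 at week 3 and 12.79 at week 10. Il33 was at 6.37 and 6.34 in weeks 4 and 5, closer to its week 3 mean of 5.93 than to its week 10 mean of 7.90. Col3a1 was at 7.08 and 6.34, between 7.63 at week 3 and 5.26 at week 10.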

How the data were processed

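Total RNA of 23 animals was hybridised to Affymetrix MOE430A arrays, 1 array per animal by the series' design text, although 2 week 5 arrays of different batches carry the same animal number. The deposited values are log2 signals per probe set from GCRMA, per the submitters' processing notes, which corrects background, normalises quantiles and summarises probes. They were used as deposited. No read depth exists, and 4 arrays per age limit the precision. Scan days came from the deposited scanner records, per the file headers, and only their order was used. Probe sets had to reach 4 on 4 arrays, and 64 controls were left out, leaving 16103 of 22690. GEO's platform annotation, updated through Entrez identifiers for 20364 probe sets, gave 1 symbol for 20393, several for 691 and none for 1606, and a gene was read on its probe set with the highest mean (9198 genes). limma 3.58.1 in R 4.3.3 (lmFit, eBayes) compared week 10 with week 3 in a fit of all 23 arrays, two-sided, with Benjamini-Hochberg adjustment over all probe sets. The random-day model used duplicateCorrelation (correlation 0.3226) and the joint-day model a term for scan days 6 and 7, both without batch. Tested on simulated data, the main model recovered 91 of 100 probe sets changed 2-fold and 75 of 100 changed 1.5-fold among 16103, with 7 false calls. The simulated arrays held independent noise and no scan day effect, so these counts do not cover errors from scan day. The named genes are the 12 highest rises and falls without overlap, the 10 highest rises and falls by smallest change over the 3 models, up to 4 called members of each of 37 lists (2 where none was called), and the rest of the 51 genes. The comparison, lists and rules were chosen with earlier results of these data known. Promoter windows came from RefSeq on GRCm38.p6. Alternatives covered normalisation, filter, weights, batch, actin integrity, scan day and single arrays.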

Additional observations from a re-analysis of the deposited data

Results flagged for a closer look

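Each age was checked for 139 named genes, the actin and Gapdh differences and the array median. In 12 of these 284 groups of 4 arrays, all of named genes, the highest or lowest array lay far from the other 3, past the critical value of Dixon's test, which chance passes in about 1 in 20 groups. Week 10 animal 1 was the array in 6 of them. By the scanner records its chip lot differed from that of the other arrays of the 2 ages, and the part of chip lot was not tested. This array also had the highest Gapdh 3′ minus 5′ difference, 0.75, with the others at 0.02 to 0.32. It was lowest for Trpc5 (2.30, with the others at 2.67 to 2.75), Cnih2 (9.0, others 9.73 to 9.86) and Dlg4 (6.85, others 8.33 to 8.63), and highest for Dmac2l (7.89, others 7.35 to 7.45), Gabrb1 (10.65, others 10.12 to 10.19) and Hmgb3 (9.20, others 8.55 to 8.61). Week 10 animal 6 was lowest for Homer2 (7.58, others 8.21 to 8.30) and Dnmt3a (7.70, others 8.31 to 8.38). Among the week 3 arrays, animal 6 was lowest for Spock2 (12.65, others 12.94 to 12.97), animal 5 for Bhlhe40 (8.99, others 9.11 to 9.12), animal 3 for Mbd3 (7.44, others 7.61 to 7.64) and animal 2 for Malat1 (10.92, others 11.66 to 11.77). Without week 10 animal 1, 2350 probe sets were called, and without week 10 animal 6, 2431. Dnmt3a and Dmac2l were called without each single array.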

How the results depend on the processing

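Called probe sets numbered 2773 and genes 1538 with the batch term. They were 324 and 184 in the random-day model, 1062 and 561 with that effect beside batch, 163 and 92 in the joint-day model, 24 and 11 with both scan day terms (added after seeing the data), 1665 and 877 with the actin 3′ to 5′ difference as covariate, and 401 and 156 at a change of at least 2-fold. Of the probe sets called in the joint-day model, 128 of 163 were called with the batch term, and in that model 1946 had an unadjusted p under 0.05. Leaving out single arrays gave 2087 to 2431 probe sets and 1139 to 1343 genes. The animal numbers do not pair the ages, and a replicate block on them (correlation -0.0539) gave 2695 and 1494. Centring each array and a second quantile normalisation moved the share of higher calls from 45.3% to 53.8% and 51.9%. All 51 genes stayed called in their direction under each alternative except the model with both scan day terms, which called 9, though 2 of the 51 failed the filter at 6 and were not tested there, and the 2-fold limit was not applied to them. The 51 genes were chosen by calls on these same arrays, including the scan day models that called few genes, which favours this outcome. Scan day as a fixed term could not be fitted.

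Among named genes, 23 reversed in the joint-day model and 25 with the random effect added, whose value follows: Xkr6 0.45 and 0.35, Trpc5 0.0212 and 0.00261, Gdap10 0.43 and 0.45, Tmod2 0.35 and 0.36, Epha4 0.25 and 0.21, Cntn1 0.0781 and 0.0597, Alcam 0.0993 and 0.0954, Igfbp6 -0.13 and -0.0335, Folr1 0.0540 and 0.0418, Synpr -0.30 and -0.31, Chga 0.0815 and 0.12, Sc5d 0.0242 and 0.0125, Srebf2 0.0641 and 0.0478, Kcnh1 0.15 and 0.17, Scn2a 0.0979 and 0.12, Kcna1 0.45 and 0.50, Gria2 0.0708 and 0.0666, Homer2 0.0844 and 0.11, Rorb 1.23 and 1.28, Csnk1e 0.11 and 0.11, Hlf 0.41 and 0.49, Cux2 0.11 and 0.11, and Rbfox2 0.29 and 0.35, with Ttll1 (-0.0146) and Sp1 (0.00510) under the second alone. None of these was called there, and the cause was not tested. Folr1 was 0.0108 after centring and 0.0167 after quantile normalisation, and without single arrays it ran from -0.0788 to 0.0255 and Chga from -0.16 to 0.0218. Prl was 0.00276 after quantile normalisation. The actin difference ran from 0.31 to 0.43 without single arrays, and that of Gapdh from -0.14 to 0.11, with -0.0836 from the middle probe set.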

Other observations

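Besides the representative probe sets of the 51 genes and 10 further ones of those genes, 32 probe sets were called in all 3 models, 14 of them with no single gene symbol. They were looked at after their values were seen. The 2 highest rises among them belong to Ighm, the heavy chain of immunoglobulin M made by B cells and plasma cells. On the first, the week 3 arrays measured 5.91, 5.19, 5.46 and 5.61 and the week 10 arrays 8.09, 7.62, 8.49 and 8.19, a change of 2.55 (limma, adjusted p = 2.5e-05). On the second, the values were 5.89, 5.85, 5.84 and 5.88 against 7.06, 7.0, 7.87 and 7.53, a change of 1.50. The ages did not overlap on either. The other 3 tested Ighm probe sets changed by 0.24, -0.03 and -0.04 without a call, so the probe sets of Ighm disagree. The 3 deepest falls were in probe sets with no single gene symbol, by -2.0, -1.64 and -1.63. Their week 3 means were 9.63, 13.44 and 13.48, and their week 10 means 7.63, 11.80 and 11.85. Such probe sets entered no gene list, so the blood list and the others leave them out.

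Apcdd1, an inhibitor of Wnt signalling, was lower on 3 such probe sets (-1.11, -0.93 and -0.85). A second probe set of Oxct1, the ketone body enzyme, measured 12.18, 11.87, 11.83 and 11.85 at week 3 and 10.76, 10.41, 10.99 and 11.02 at week 10, a change of -1.14 that was called in the joint-day model (adjusted p = 0.012), unlike its representative. Gsn, the actin-severing protein gelsolin of oligodendrocytes, changed by -1.61 on a second probe set.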
